A study of Mus musculus with 12 samples.

Results

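The genes described here encode claudins, cadherins and other proteins of tight junctions, chosen by symbol: numbered claudins (Cldn) and cadherins (Cdh), zonula occludens scaffolds such as Tjp1 and Tjp3, occludin (Ocln), F11r, and Marveld1, Marveld2 and Marveld3, each with at least 10 counts summed over the 12 libraries. Of 56722 genes in the count table, 44 met this rule: 19 claudins, 17 cadherins and 8 other genes. Another 2 claudins are not analysed here, and 9 matching genes held fewer than 10 counts, among them Cdh7, Cdh8, Cldn13 and Cldn25, which are listed at 0 in every library. Of the 44 genes, 36 passed the filter on low counts and were tested; Cdh10, Cdh20, Cdh22, Cdh23, Cdh26, Cldn20, Cldn22 and Cldn24 did not pass it.

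The study followed podocyte injury over time in the mouse kidney. All mice carried the Pod-TRECK genotype, in which podocytes are made sensitive to diphtheria toxin. The sources used here do not give the promoter that drives the receptor, or the strain, age and sex of the mice. The 4 groups of 3 mice were mice without treatment (controls) and mice injected into the peritoneum with 100 ng of diphtheria toxin, whose kidneys were taken at 5, 14 or 21 days. RNA came from whole kidney, so that a lower level can mean fewer cells of a type or less RNA per cell, which cannot be told apart.

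Tight junctions seal the space between epithelial cells, and their claudins line that space and set which ions and how much water pass through it. In the kidney each nephron segment has its own set: Cldn2 and Cldn10 in the proximal tubule, where the junctions are leaky, and Cldn3, Cldn4, Cldn7 and Cldn8 in the distal nephron and collecting duct, where they are tight. Occludin and the MARVEL proteins run beside the claudins in the membrane, JAM-A (F11r) is an adhesion molecule of the same belt, and the zonula occludens proteins, Tjp1 and Tjp3 among them, tie these to actin. Cadherins form the adherens junctions below, and each kidney cell type carries its own cadherins.

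Total counts ran from 31023852 to 46420299 per library, and no gene of 12 marker lists for kidney and neighbouring cell types was at 0 in every library. Of 8 podocyte markers, 6 fell and 1 (Cd2ap) rose at day 5, where 5.09% of all genes fell and 9.77% rose. Day-21 replicate 2 stood apart: its first principal component score was -36.8, against 73.0 and 80.1 in the other day-21 kidneys, and nearer the day-5 kidneys, at -44.5 to -37.4. The calls of the members and the counts of the lists are therefore also given from a fit without it where they differ. Here 7 podocyte markers fell at day 5, where 14.9% of all genes fell. The model estimates spread over all libraries together, so standard errors and calls at days 5 and 14 also depend on day-21 replicate 2. For day 14 against day 5 the standard error was 0.52 for Cldn3 and 0.29 for Cldn6. Without that kidney it was 0.16 and 0.26. Values of single libraries are in the order of the replicate numbers. Mitochondrial genes held 22.4% to 23.7% of control counts and 8.98% to 9.46% of day-14 counts. Levels are given as CPM, the reads of a gene relative to a library size scaled by TMM factors. Scaling by library totals alone put the median change over all tested genes at day 14 at 0.80 (log2), against 0.08 with TMM factors, and the share of rises among calls to 85.6%, against 52.1%. At day 21 the same change of scale moved the median to 0.55, against 0.07, and the share of rises to 88.3%, against 56.8%.

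Many junction genes were higher after the toxin, and a smaller group was lower. A gene was called where edgeR's quasi-likelihood test gave a Benjamini-Hochberg adjusted p under 0.05 over all 19821 genes tested, and a positive log2 fold change means higher in the kidneys named first. At day 5 against control 6 of the 36 tested genes rose, where 9.77% of all genes rose, and 4 fell, where 5.09% of all genes fell. At day 14 20 rose against a background of 31.2% and 6 fell against 28.8%. At day 21 17 rose against a background of 24.3% and 4 fell against 18.5%. The median log2 fold change of the tested members was 0.21 at day 5, 0.87 at day 14 and 0.44 at day 21, and over all genes the median was 0.0035 at day 5, 0.08 at day 14 and 0.07 at day 21.

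Without day-21 replicate 2, 20694 genes and 38 members were tested, Cdh22 and Cldn22 being the members added. In that fit 12 members rose at day 5, against a background of 17.4%, and 6 fell, against 14.9%. At day 14 23 rose against 34.7% and 8 fell against 30.9%. At day 21 23 rose against 33.2% and 5 fell against 28.4%. The rises added at day 5 were Cdh3, Cldn2, Cldn4, Cldn8, Cldn11 and Cldn14 and the falls Cdh16 and Tjp3, among them Cldn2 at 0.26 ± 0.09, Cldn8 at 0.21 ± 0.07 and Tjp3 at -0.44 ± 0.12 on the log2 scale (adjusted p = 0.0425, 0.0359 and 0.0129). Those added at day 14 were rises of Cdh19, Cdh22 and Cldn11 and falls of Cdh16 and Cldn2, and those added at day 21 were rises of Cdh1, Cdh13, Cdh22, Cldn11, Marveld1 and Tjp1 and a fall of Cldn10. In both fits the share of members that rose was above the background on each day, and the share that fell was below it at days 14 and 21. No test of these differences was made.

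**Figure D1:**
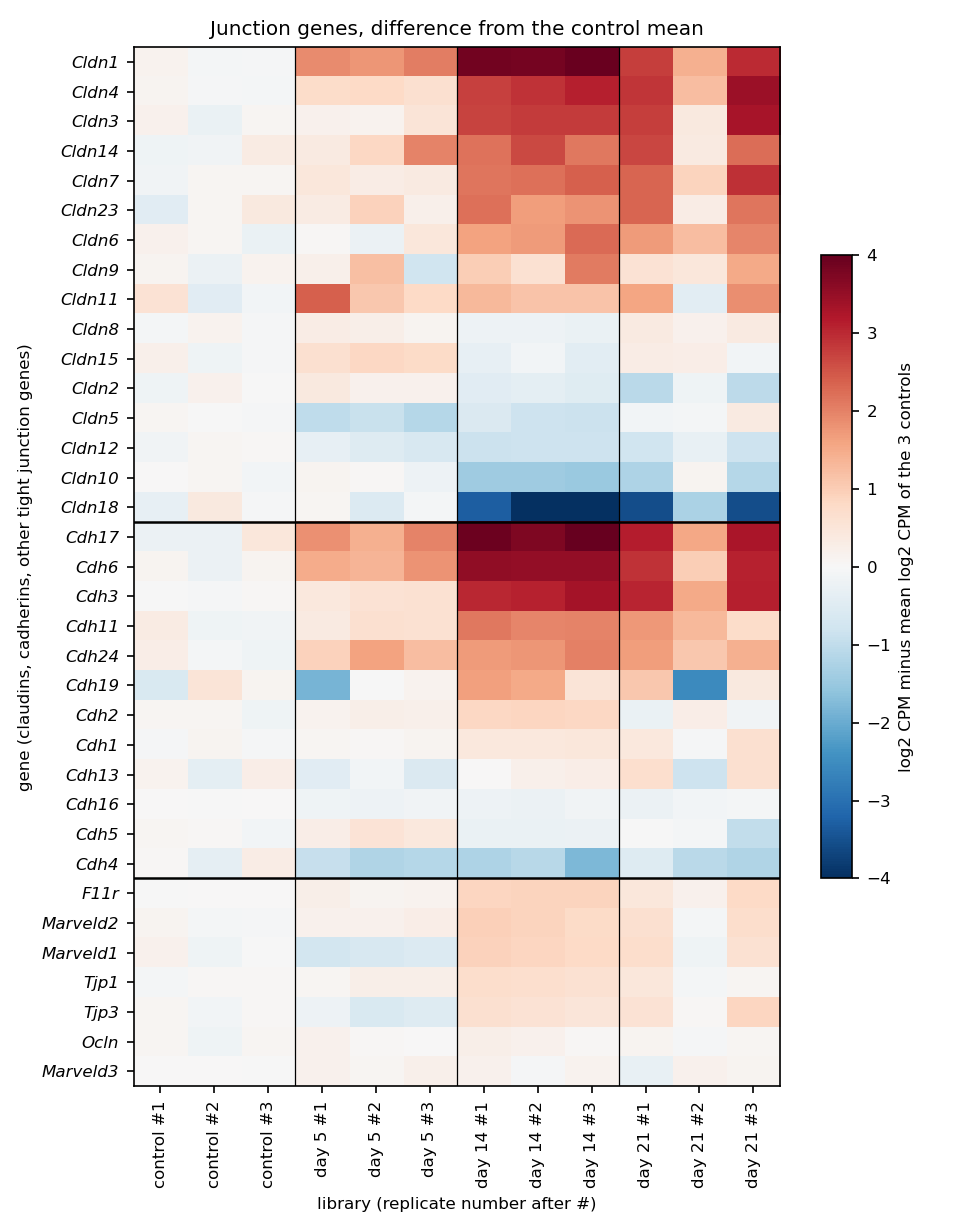
Heat map of 35 tested genes (rows, in 3 blocks: claudins, cadherins, other tight junction genes, each ordered by its day-14 value) in 12 libraries (columns). Colour is log2 CPM minus the mean log2 CPM of the 3 controls, with values beyond 4 in either direction drawn at the end of the scale. The day-14 columns carry the deepest colours in both directions, and day-21 replicate 2 is paler than the other day-21 libraries in Cldn1, Cldn3, Cldn4, Cldn7, Cdh3 and Cdh6.

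Among claudins with a mean of at least 1 CPM, Cldn1, Cldn3, Cldn4 and Cldn7 had the largest rises at days 14 and 21. Cldn1 is a barrier claudin that in the kidney marks the parietal cells of Bowman's capsule. It had 12.3, 10.5 and 10.96 CPM in control kidneys, 42.0, 38.2 and 46.2 CPM at day 5, 164, 161 and 173 CPM at day 14 and 77.2, 29.98 and 89.9 CPM at day 21. Each of the 9 kidneys given toxin was above each control, and the day-14 kidneys were above all others. The log2 fold change of Cldn1 was 1.90 ± 0.31 at day 5 (standard error, adjusted p = 0.00216), 3.88 ± 0.33 at day 14 (adjusted p = 1.17e-05) and 2.55 ± 0.31 at day 21 (adjusted p = 0.000535).

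Cldn3, Cldn4 and Cldn7 are sealing claudins of the distal nephron and collecting duct. Cldn3 had 7.0, 5.12 and 6.48 CPM in control kidneys, 6.96, 6.74 and 8.90 CPM at day 5, 40.7, 42.7 and 42.8 CPM at day 14 and 41.9, 8.12 and 61.1 CPM at day 21. Cldn4, which forms a chloride path in collecting duct cells, had 12.8, 11.5 and 11.2 CPM in control kidneys, 19.7, 20.5 and 18.5 CPM at day 5, 78.8, 88.3 and 102 CPM at day 14 and 86.6, 27.8 and 128 CPM at day 21. Cldn7 had 10.1, 11.8 and 11.6 CPM in control kidneys, 15.2, 13.6 and 14.2 CPM at day 5, 49.1, 51.6 and 58.4 CPM at day 14 and 56.0, 20.9 and 84.1 CPM at day 21. In all 3 genes the day-14 kidneys lay far above the controls, and at day 21 replicate 2 was the lowest of its group by a wide gap.

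At day 14 the log2 fold change was 2.76 ± 0.53 for Cldn3 (adjusted p = 0.00114), 2.92 ± 0.41 for Cldn4 (adjusted p = 0.000201) and 2.25 ± 0.37 for Cldn7 (adjusted p = 0.000469). At day 21 it was 2.58 ± 0.53 for Cldn3, 2.77 ± 0.41 for Cldn4 and 2.27 ± 0.37 for Cldn7, and without day-21 replicate 2 it was 3.05 ± 0.17, 3.17 ± 0.15 and 2.64 ± 0.15 in the same order. The day-21 call of Cldn3 was lost in a fit of the control and day-21 libraries alone. At day 5 none of these 3 genes was called, with log2 fold changes of 0.28 for Cldn3, 0.72 for Cldn4 and 0.36 for Cldn7. Cldn4 rose at day 5 in the fit without day-21 replicate 2 (0.72 ± 0.14, adjusted p = 0.00225).

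The promoter windows of these 4 claudins are shown because all 4 genes rose at days 14 and 21, and because Cldn3 and Cldn4 lie side by side on chromosome 5, 39280 bases apart in the table's coordinates. Windows of 300 bases, from 250 before to 50 after an annotated start, came from RefSeq (GRCm38.p6, a build older than that of the count table), and 29 of the 44 genes have at least 1. They were searched on both strands for 3 motifs: CACCTG, the E-box that SNAI and ZEB repressors bind, TGANTCA, bound by AP-1, and AACCNGTT, bound by grainyhead factors. Capitals mark the letters of a motif found. The windows are Cldn4 at chr5:134946885-134947184 (minus strand), Cldn3 at chr5:134985964-134986263 (plus strand), the second Cldn7 start at chr11:69965171-69965470 (plus strand) and Cldn1 at chr16:26371790-26372089 (minus strand).
Cldn4: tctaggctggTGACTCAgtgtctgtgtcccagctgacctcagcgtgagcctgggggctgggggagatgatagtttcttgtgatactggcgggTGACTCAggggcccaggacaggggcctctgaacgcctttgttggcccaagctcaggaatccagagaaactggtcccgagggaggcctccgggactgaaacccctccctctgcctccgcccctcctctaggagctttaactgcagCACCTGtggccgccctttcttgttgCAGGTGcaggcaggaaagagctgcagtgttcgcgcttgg
Cldn3: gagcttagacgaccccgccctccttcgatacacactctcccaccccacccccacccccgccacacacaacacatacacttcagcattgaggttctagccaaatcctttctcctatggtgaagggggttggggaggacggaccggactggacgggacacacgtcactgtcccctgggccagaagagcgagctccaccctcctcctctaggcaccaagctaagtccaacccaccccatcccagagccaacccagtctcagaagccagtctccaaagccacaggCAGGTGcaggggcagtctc
Cldn7: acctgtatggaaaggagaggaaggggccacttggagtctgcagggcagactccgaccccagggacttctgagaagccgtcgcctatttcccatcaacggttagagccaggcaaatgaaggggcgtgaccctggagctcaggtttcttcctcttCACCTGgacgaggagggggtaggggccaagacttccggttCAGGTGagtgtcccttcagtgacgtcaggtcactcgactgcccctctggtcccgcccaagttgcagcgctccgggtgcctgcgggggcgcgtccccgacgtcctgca
Cldn1: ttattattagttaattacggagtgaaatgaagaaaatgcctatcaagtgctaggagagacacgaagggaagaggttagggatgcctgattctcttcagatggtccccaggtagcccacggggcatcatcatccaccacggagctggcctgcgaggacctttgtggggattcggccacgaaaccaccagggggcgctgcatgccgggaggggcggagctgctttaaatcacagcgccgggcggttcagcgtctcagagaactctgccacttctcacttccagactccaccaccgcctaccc

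The Cldn4 window held 2 E-boxes, beginning at positions -14 and 11 with the first transcribed base at 0, and 2 AP-1 motifs, beginning at -240 and -158. The Cldn3 window held 1 E-box at 31, and the second Cldn7 window held 2, at -97 and -57. The first Cldn7 window, not printed, and the Cldn1 window held none of the 3 motifs. No motif overlapped another in these windows. Of 32851 mouse windows of the same length, 20.2% held the E-box, 7.81% the AP-1 motif and 2.09% the grainyhead motif, and of the 39 windows of the genes described here 12 held the E-box, 3 the AP-1 motif and 1 the grainyhead motif, that of Cldn5. Windows of the same gene can overlap, as those of Marveld2 do, so 1 site can be counted in more than 1 window. The shares were not tested against each other. These matches are letters in a window and say nothing of binding.

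**Figure D2:**
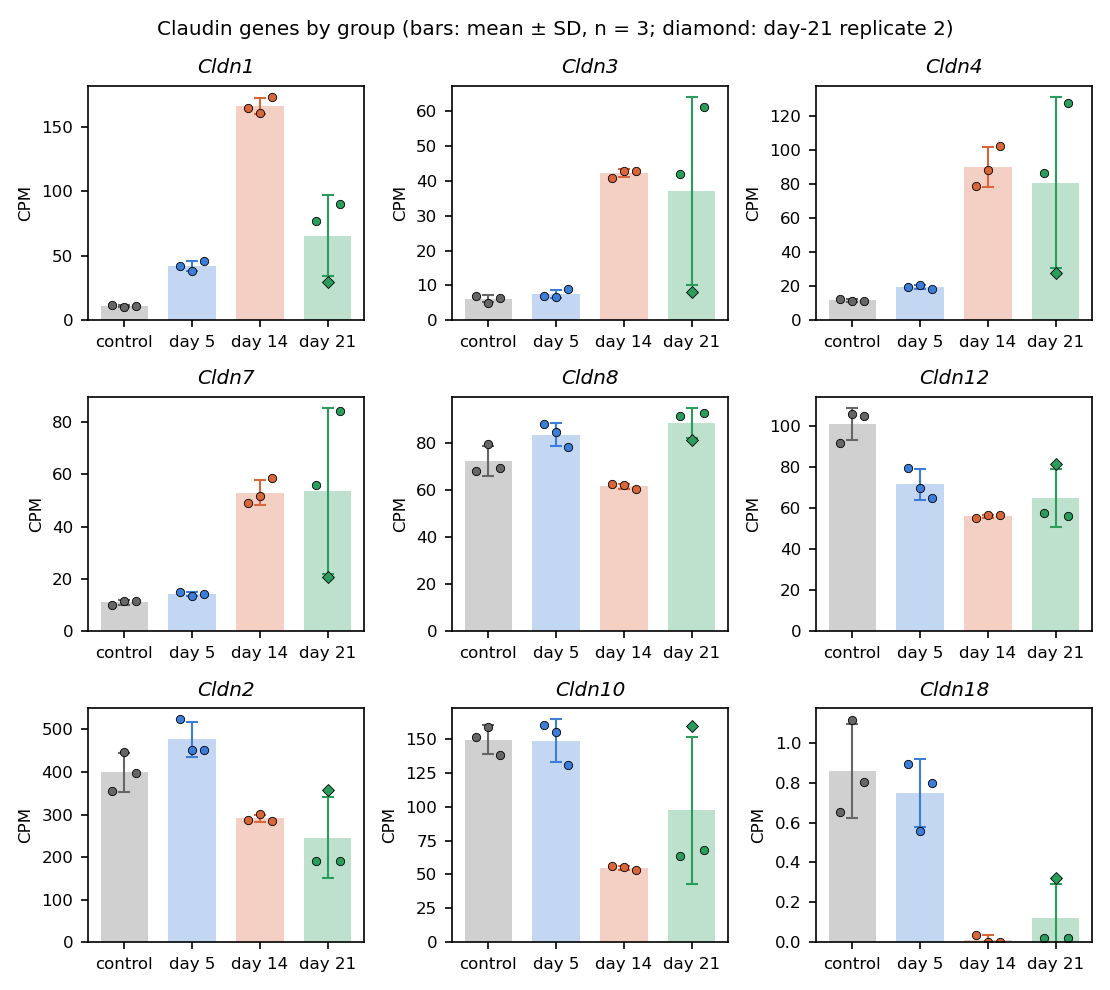
CPM (vertical axes, each from 0) of 9 claudin genes by group, with bars at the mean of 3 mice, error bars of 1 SD, and a point per mouse, the diamond being day-21 replicate 2. Cldn1, Cldn3, Cldn4 and Cldn7 stand highest at days 14 and 21, Cldn10, Cldn12 and Cldn18 are lower at day 14 than in controls, and the diamond lies near the control points for Cldn3, Cldn2 and Cldn10.

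Cldn8, which pairs with Cldn4 in the collecting duct, did not follow these genes. It had 68.0, 79.7 and 69.4 CPM in control kidneys, 88.1, 84.7 and 78.2 CPM at day 5, 62.6, 62.1 and 60.5 CPM at day 14 and 91.8, 81.4 and 92.7 CPM at day 21. The day-14 kidneys were below and the day-21 kidneys above all controls, by small margins. Cldn8 fell by 0.23 ± 0.09 at day 14 on the log2 scale (adjusted p = 0.0419) and rose by 0.29 ± 0.09 at day 21 (adjusted p = 0.0228). The day-14 call was lost without control replicate 2, day-5 replicate 2 or any 1 day-14 kidney (adjusted p up to 0.106), with no filter on low counts (adjusted p = 0.111) and with a filter on CPM (adjusted p = 0.0526), and with library totals alone the value turned to 0.50. The day-21 call was lost without control replicate 1 or 3, or day-21 replicate 1 or 3 (adjusted p up to 0.117), with no filter on low counts (adjusted p = 0.0575) and in the fit of the 6 libraries compared (adjusted p = 0.124).

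Of the claudins of the proximal tubule, Cldn10 fell at day 14 and Cldn2 at day 21, and without day-21 replicate 2 both fell on both days. Cldn2, the cation and water channel of that segment, had 355, 446 and 397 CPM in control kidneys, 524, 453 and 452 CPM at day 5, 288, 301 and 285 CPM at day 14 and 190.3, 357 and 191 CPM at day 21. Its day-14 kidneys were below all controls, but the log2 fold change of -0.46 ± 0.22 was not called (adjusted p = 0.0915), and with library totals alone it was 0.27. Without day-21 replicate 2 it was called (-0.46 ± 0.09, adjusted p = 0.000563). At day 21 Cldn2 fell by 0.70 ± 0.22 (adjusted p = 0.0263), and by 1.07 ± 0.10 without replicate 2. The day-21 call in all libraries was lost without control replicate 2 or 3, or day-21 replicate 1 or 3 (adjusted p up to 0.0958). It was also lost with library totals alone and in the fit of the 6 libraries compared.

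Cldn10, whose forms serve as an anion path in the proximal tubule and a cation path in the thick ascending limb, had 152, 158 and 138 CPM in control kidneys, 159.9, 155 and 130.3 CPM at day 5, 56.0, 55.2 and 53.4 CPM at day 14 and 63.9, 159 and 68.1 CPM at day 21. The forms share 1 row in the table. It fell by 1.44 ± 0.29 at day 14 (adjusted p = 0.00143). At day 21 it was not called in all libraries (-0.62 ± 0.28, adjusted p = 0.0948), where replicate 2 was above each control, and it fell by 1.18 ± 0.09 without that kidney (adjusted p = 6.74e-07).

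Cldn12, a widely expressed claudin, had 91.8, 106 and 105 CPM in control kidneys, 79.6, 69.8 and 64.9 CPM at day 5, 55.1, 56.5 and 56.5 CPM at day 14 and 57.4, 81.2 and 56.1 CPM at day 21. All kidneys given toxin were below all controls. It fell by 0.50 ± 0.14 at day 5 (adjusted p = 0.0347), 0.85 ± 0.14 at day 14 (adjusted p = 0.00047) and 0.64 ± 0.14 at day 21 (adjusted p = 0.00649). With library totals alone the day-14 value was -0.12 and the day-21 value -0.19, both without a call. The day-21 call was also lost in the fit of the 6 libraries compared. The day-5 call was lost without control replicate 2 or 3, day-5 replicate 2 or 3, or any 1 day-14 kidney (adjusted p up to 0.132). It was also lost with no filter on low counts.

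Cldn5 is the claudin of endothelium and of podocytes. It had 4.92, 4.58 and 4.48 CPM in control kidneys, 2.28, 2.46 and 2.10 CPM at day 5, 3.11, 2.63 and 2.53 CPM at day 14 and 4.33, 4.37 and 5.99 CPM at day 21. The day-5 and day-14 kidneys were below all controls, and the day-21 kidneys overlapped them. It fell by 1.03 ± 0.16 at day 5 (adjusted p = 0.0021) and by 0.76 ± 0.16 at day 14 (adjusted p = 0.00227), but with library totals alone the day-14 value was -0.03. At day 21 the log2 fold change was 0.07 ± 0.16 (adjusted p = 0.726), and day 21 was above day 14 by 0.83 ± 0.16 (adjusted p = 0.00979). That last call was lost without day-14 replicate 2 (adjusted p = 0.0512), with library totals alone and in the fit of the 6 libraries compared. Beside it, the 10 endothelial markers summed to 373 to 450.3 CPM at day 5, against 430 to 451 CPM in controls. The 8 podocyte markers summed to 296 to 304 CPM at day 5, against 417 to 433 CPM in controls. Without Cd2ap, which rose, the other 7 summed to 90.3 to 109 CPM at day 5, against 297 to 314 CPM in controls. At day 14 these 7 summed to 130 to 138 CPM, and the endothelial markers to 330 to 351 CPM. At day 21 the 7 summed to 114, 234 and 95.1 CPM, and the endothelial markers to 366, 386 and 276 CPM. Cd2ap, an adaptor of the podocyte slit diaphragm that other cells also express, rose by 0.74 ± 0.14 at day 5 (adjusted p = 0.00555). The part of either cell type in the Cldn5 values was not tested.

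Cldn15, a cation channel known from the intestine, had 8.75, 6.87 and 7.50 CPM in control kidneys, 12.1, 13.5 and 13.2 CPM at day 5, 6.13, 7.05 and 5.72 CPM at day 14 and 9.49, 9.24 and 7.10 CPM at day 21. Only its day-5 kidneys were all above the controls, and it rose there by 0.75 ± 0.14 (adjusted p = 0.0053). It was not called at day 14 (-0.29 ± 0.14, adjusted p = 0.0976, and 0.44 with library totals alone) or at day 21 (0.16 ± 0.14, adjusted p = 0.374).

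The scarcer claudins had few reads per library. Cldn18, the claudin of stomach and lung epithelium, held 85 counts in the 3 control libraries together, 80 in those of day 5, 2 in those of day 14 and 12 in those of day 21. Relative to TMM-scaled library sizes, its day-14 level was 0.0175 of the control level (exact 95% interval 0.00208 to 0.0651, covering counting error only). It had 0.653, 1.11 and 0.803 CPM in control kidneys, 0.891, 0.559 and 0.796 CPM at day 5, 0.0386, 0 and 0 CPM at day 14 and 0.0242, 0.321 and 0.0235 CPM at day 21. It was called at day 14 (adjusted p = 0.000548) and at day 21 (adjusted p = 0.0108), the latter not in the fit of the 6 libraries compared. At day 21 replicate 2 held nearly all of its reads. An antisense neighbour, Gm16004, overlaps it with 16 counts over all libraries, and whether the counting used strand is not known here.

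Cldn6, a claudin of immature epithelia that neighbours Cldn9 at a distance of 138 bases, had 0.653, 0.603 and 0.463 CPM in control kidneys, 0.594, 0.475 and 0.796 CPM at day 5, 1.85, 1.96 and 2.92 CPM at day 14 and 1.96, 1.41 and 2.37 CPM at day 21. Every day-14 and day-21 kidney was above every control. It rose by 1.96 ± 0.30 at day 14 (adjusted p = 0.000283) and by 1.74 ± 0.30 at day 21 (adjusted p = 0.00227). Cldn9 held 8 counts in controls and 38 at day 14, and its log2 fold change of 1.80 ± 0.75 at day 14 was not called (adjusted p = 0.0573).

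Cldn14, a claudin of the thick ascending limb that responds to calcium, held 4 control counts, 19 at day 5, 54 at day 14 and 40 at day 21. It rose at day 14 (adjusted p = 0.00549) and at day 21 (adjusted p = 0.018). Its day-14 level was 10.03 times the control level relative to TMM-scaled library sizes, with a counting interval of 3.70 to 38.1. The day-21 call of Cldn14 was lost without control replicate 1 or 2, or day-21 replicate 1 or 3 (adjusted p up to 0.0669). Cldn23 held 23 control counts, 37 at day 5, 135 at day 14 and 114 at day 21, and rose by 2.08 ± 0.52 at day 14 (adjusted p = 0.0053) and by 2.01 ± 0.52 at day 21 (adjusted p = 0.013). The day-21 call of Cldn23 was lost without control replicate 1 (adjusted p = 0.051). Cldn11, known from myelin and the testis, held 11 counts in controls and 42 at day 5, 41 at day 14 and 41 at day 21, and was called on none of the 3 days in all libraries (adjusted p = 0.115 at day 5, 0.109 at day 14 and 0.0941 at day 21), but on each without day-21 replicate 2. Cldn20, Cldn22 and Cldn24 held 3, 18 and 7 counts in controls and were not tested in all libraries. Cldn20 and Cldn22 overlap Tfb1m and Wwc2 on the other strand, which held 2555 and 51667 counts, so their reads are uncertain.

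Within each library the claudins can be compared as a pool, in CPM per kilobase of the length given in the table, summed over the 19 genes. Cldn1, Cldn3, Cldn4 and Cldn7 together made up 10.4%, 8.52% and 9.82% of the pool in control kidneys, 13.5%, 14.0% and 15.9% at day 5, 53.9%, 54.8% and 57.9% at day 14 and 51.5%, 17.6% and 59.9% at day 21. Cldn2 and Cldn10 together made up 58.2%, 60.2% and 58.1% in control kidneys, 59.2%, 57.8% and 56.6% at day 5, 26.9%, 26.6% and 24.4% at day 14 and 22.2%, 53.1% and 18.6% at day 21. Cldn1, Cldn3, Cldn4 and Cldn7 thus took the larger share in all 3 day-14 kidneys and in 2 day-21 kidneys. Cldn2 and Cldn10, whose row also holds the form of the thick ascending limb, took it in the other 7. The rises of Cldn1, Cldn3, Cldn4 and Cldn7 were the largest among claudins with a mean of at least 1 CPM, so this choice partly fixed their gain in share. Cldn8, another distal claudin, was left out, and averaged 15.5% of the pool in controls, 10.3% at day 14 and 15.3% at day 21. These shares do not depend on the scaling between libraries. The whole pool averaged 198 ± 12.0 CPM per kilobase in control kidneys, 222 ± 14.1 at day 5, 255 ± 9.40 at day 14 and 248 ± 41.4 at day 21 (SD, n = 3 each).

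Per length, Cldn4 was in place 2 among the 44 genes at day 14, against place 9 in controls. Cldn1 was in place 6 at day 14, against place 21 in controls, and Cldn10 in place 10, against place 3. The ratio of Cldn4 to Cldn2 per length was 0.123, 0.0880 and 0.0964 in control kidneys, 0.128, 0.155 and 0.139 at day 5, 0.935, 1.00 and 1.23 at day 14 and 1.55, 0.266 and 2.28 at day 21. The ratio of Cldn3 to its neighbour Cldn4 was 0.790, 0.642 and 0.834 in control kidneys and 0.746, 0.698 and 0.604 at day 14, so that the groups overlapped.

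**Figure D3:**
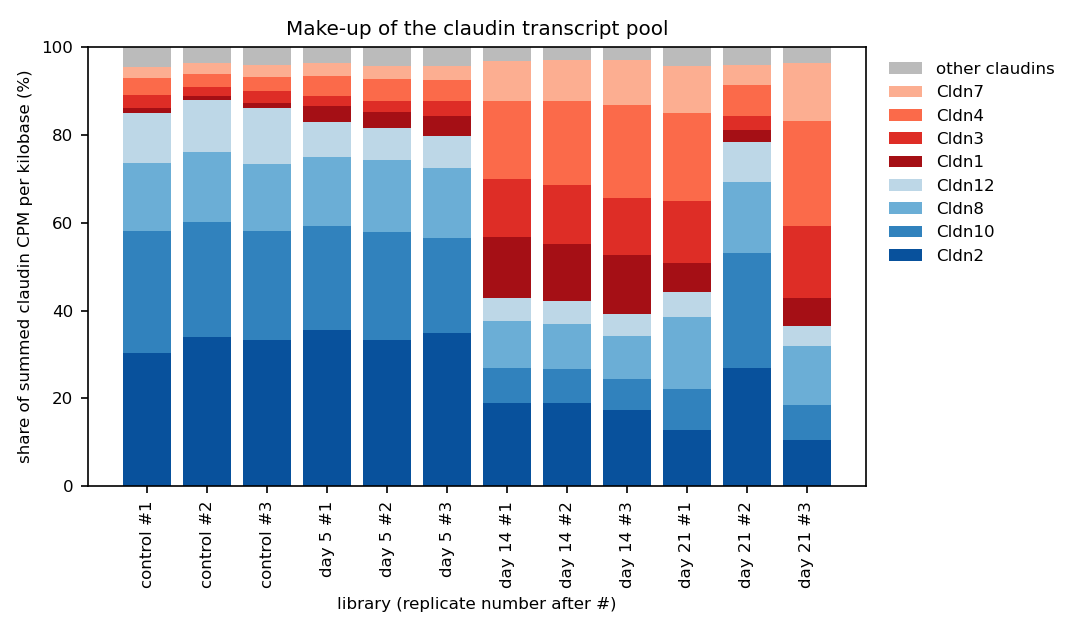
Stacked bars of the share of each claudin in the summed claudin CPM per kilobase (vertical axis, in %), one bar per library. Reds are Cldn1, Cldn3, Cldn4 and Cldn7, blues are Cldn2, Cldn10, Cldn8 and Cldn12, and grey is the sum of the other 11 claudins. Reds cover 53.9% to 57.9% of the day-14 bars and 8.52% to 10.4% of the control bars, and day-21 replicate 2, at 17.6%, is close to the day-5 bars.

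Among the cadherins, Cdh6 and Cdh3 rose most of the genes with more than a few reads. Cdh6 (K-cadherin) belongs to the developing proximal tubule. It had 6.97, 5.51 and 6.98 CPM in control kidneys, 18.2, 16.5 and 22.7 CPM at day 5, 75.7, 73.9 and 74.3 CPM at day 14 and 48.3, 12.7 and 54.6 CPM at day 21. Each kidney given toxin was above each control. Its log2 fold change was 1.56 ± 0.41 at day 5 (adjusted p = 0.0261), 3.52 ± 0.43 at day 14 (adjusted p = 8.82e-05) and 2.57 ± 0.42 at day 21 (adjusted p = 0.0018). The day-5 call was lost without any 1 control or any 1 day-5 kidney (adjusted p = 0.0509 to 0.0961), and in limma-voom. Without day-21 replicate 2 the day-5 value was 1.57 ± 0.12 (adjusted p = 4.1e-06).

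Cdh3 (P-cadherin), a cadherin of basal epithelial layers, had 3.47, 3.37 and 3.64 CPM in control kidneys, 4.72, 5.20 and 5.31 CPM at day 5, 28.6, 30.1 and 35.4 CPM at day 14 and 29.6, 10.1 and 30.6 CPM at day 21. It rose by 3.16 ± 0.34 at day 14 (adjusted p = 4.32e-05) and by 2.75 ± 0.33 at day 21 (adjusted p = 0.000514). At day 5 its log2 fold change was 0.54 ± 0.33 without a call (adjusted p = 0.319), and it rose in the fit without day-21 replicate 2 (0.54 ± 0.10, adjusted p = 0.00178).

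Cdh1 (E-cadherin), the main cadherin of the distal nephron, neighbours Cdh3 at 46054 bases. It had 149.9, 168 and 151 CPM in control kidneys, 165, 160.0 and 167 CPM at day 5, 207, 209.7 and 213 CPM at day 14 and 211, 152 and 245 CPM at day 21. The day-14 kidneys were above all controls, and the other days overlapped them. It rose by 0.43 ± 0.15 at day 14 (adjusted p = 0.0263), and that call was lost without control replicate 1 or 3 or any 1 day-14 kidney (adjusted p = 0.0565 to 0.1). At day 21 it was called without replicate 2 (0.54 ± 0.08, adjusted p = 7.92e-05) and not in all libraries (0.37 ± 0.15, adjusted p = 0.0577).

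Cdh2 (N-cadherin), the cadherin of the proximal tubule, had 10.7, 10.5 and 8.92 CPM in control kidneys, 11.1, 11.7 and 11.6 CPM at day 5, 17.7, 18.1 and 17.8 CPM at day 14 and 8.35, 11.9 and 9.07 CPM at day 21. It was above all controls at day 5 and day 14 and overlapped them at day 21. It rose by 0.83 ± 0.13 at day 14 (adjusted p = 0.000337), and its day-21 log2 fold change was -0.04 ± 0.13 (adjusted p = 0.814, and 0.41 with library totals alone). In whole-kidney RNA, Cdh2 therefore moved opposite to the proximal markers and to Cldn10 at day 14. The part of other cell types in the Cdh2 values was not tested. The ratio of Cdh1 to Cdh2 per length was 24.8, 28.0 and 29.9 in control kidneys, 26.2, 24.0 and 25.3 at day 5, 20.6, 20.5 and 21.1 at day 14 and 44.5, 22.4 and 47.7 at day 21.

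Cdh16 (Ksp-cadherin), the cadherin of all tubule segments, was the most abundant of the 44 genes per length. It had 814, 797 and 817 CPM in control kidneys, 713, 703 and 737 CPM at day 5, 697, 694 and 732 CPM at day 14 and 691, 743 and 768 CPM at day 21. Every kidney given toxin was below every control, but no day was called (adjusted p = 0.292 at day 5, 0.12 at day 14 and 0.272 at day 21). Without day-21 replicate 2 it fell by 0.17 ± 0.06 at day 5 and by 0.20 ± 0.06 at day 14, and with library totals alone its day-14 value turned to 0.54 and its day-21 value to 0.34. Its share of the summed cadherin CPM per kilobase was 81.9% ± 0.839 in the control kidneys, 78.2% ± 0.241 at day 5, 70.4% ± 0.303 on day 14 and 74.3% ± 4.74 at day 21 (SD, n = 3 each).

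Cdh11 (OB-cadherin), known from fibroblasts and other mesenchymal cells, had 13.1, 9.25 and 9.38 CPM in control kidneys, 13.3, 16.2 and 16.0 CPM at day 5, 45.3, 41.0 and 41.3 CPM at day 14 and 34.9, 25.7 and 17.4 CPM at day 21. It rose by 2.01 ± 0.23 at day 14 (adjusted p = 5.59e-05) and by 1.30 ± 0.22 at day 21 (adjusted p = 0.00235). Here day-21 replicate 2 lay between the other day-21 kidneys, unlike in Cdh3 and Cdh6. At day 14, 31.2% of all genes rose and 8 of the 9 fibroblast and mesangial markers rose. These markers summed to 925 to 949 CPM, against 143 to 213 CPM in controls. Their part in the Cdh11 values was not tested.

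Cdh5 (VE-cadherin), of endothelium, had 20.5, 19.9 and 17.9 CPM in control kidneys, 23.3, 28.2 and 26.1 CPM at day 5, 16.3, 16.3 and 16.6 CPM at day 14 and 19.3, 18.6 and 9.87 CPM at day 21. It was not called against control on any day, and its day-14 log2 fold change was -0.24 ± 0.20 (adjusted p = 0.307, and 0.48 with library totals alone). Cdh4 (R-cadherin), known from the developing kidney, had 2.91, 2.20 and 3.52 CPM in control kidneys, 1.45, 1.203 and 1.25 CPM at day 5, 1.18, 1.28 and 0.779 CPM at day 14 and 1.96, 1.32 and 1.199 CPM at day 21. All kidneys given toxin were below all controls. It fell by 1.14 ± 0.27 at day 5 (adjusted p = 0.0157), by 1.41 ± 0.27 at day 14 (adjusted p = 0.00108) and by 0.94 ± 0.26 at day 21 (adjusted p = 0.0175). With library totals alone these calls were lost (adjusted p = 0.052 at day 5, 0.0544 at day 14 and 0.195 at day 21), as were those of day 5 without control replicate 3 or day-5 replicate 2 or 3 and of day 21 without control replicate 3 or day-21 replicate 3 (adjusted p up to 0.0663). The day-21 call was also lost in the fit of the 6 libraries compared.

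Among scarce cadherins, Cdh17 (LI-cadherin), of the intestine, held 1 count in the 3 control libraries, 17 at day 5, 121 at day 14 and 47 at day 21. Relative to TMM-scaled library sizes its day-14 level was 89.9 times the control level, with a counting interval of 15.8 to 3580. Cdh17 rose on all 3 days (adjusted p = 0.0291 at day 5, 1e-04 at day 14 and 0.00229 at day 21), the day-5 call being lost without control replicate 1 or 2 or day-5 replicate 1 or 3 (adjusted p up to 0.103). Cdh24 held 29 control counts, 84 at day 5, 155 at day 14 and 101 at day 21, and rose by 1.40 ± 0.29 at day 5, 1.99 ± 0.28 at day 14 and 1.56 ± 0.28 at day 21 (adjusted p = 0.00805, 0.000197 and 0.00298). Cdh19, known from Schwann cells, had a log2 fold change of 1.38 ± 0.79 at day 14 without a call (adjusted p = 0.155), and rose in the fit without day-21 replicate 2 (adjusted p = 0.0354). Cdh13 (T-cadherin), which lacks a cytoplasmic part, was not called on any day, and without day-21 replicate 2 it rose by 0.62 ± 0.19 at day 21 (adjusted p = 0.0122). Cdh22 held 1 control count, 4 at day 5, 16 at day 14 and 30 at day 21, and was tested only without day-21 replicate 2, where it rose at day 14 (adjusted p = 0.0194) and day 21 (adjusted p = 0.00116). Cdh10, Cdh20, Cdh23 and Cdh26 held 2 to 4 counts in controls and 3 to 10 at day 14. Cdh23 overlaps Vsir on the other strand, which held 6300 counts, so its reads are uncertain.

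**Figure D4:**
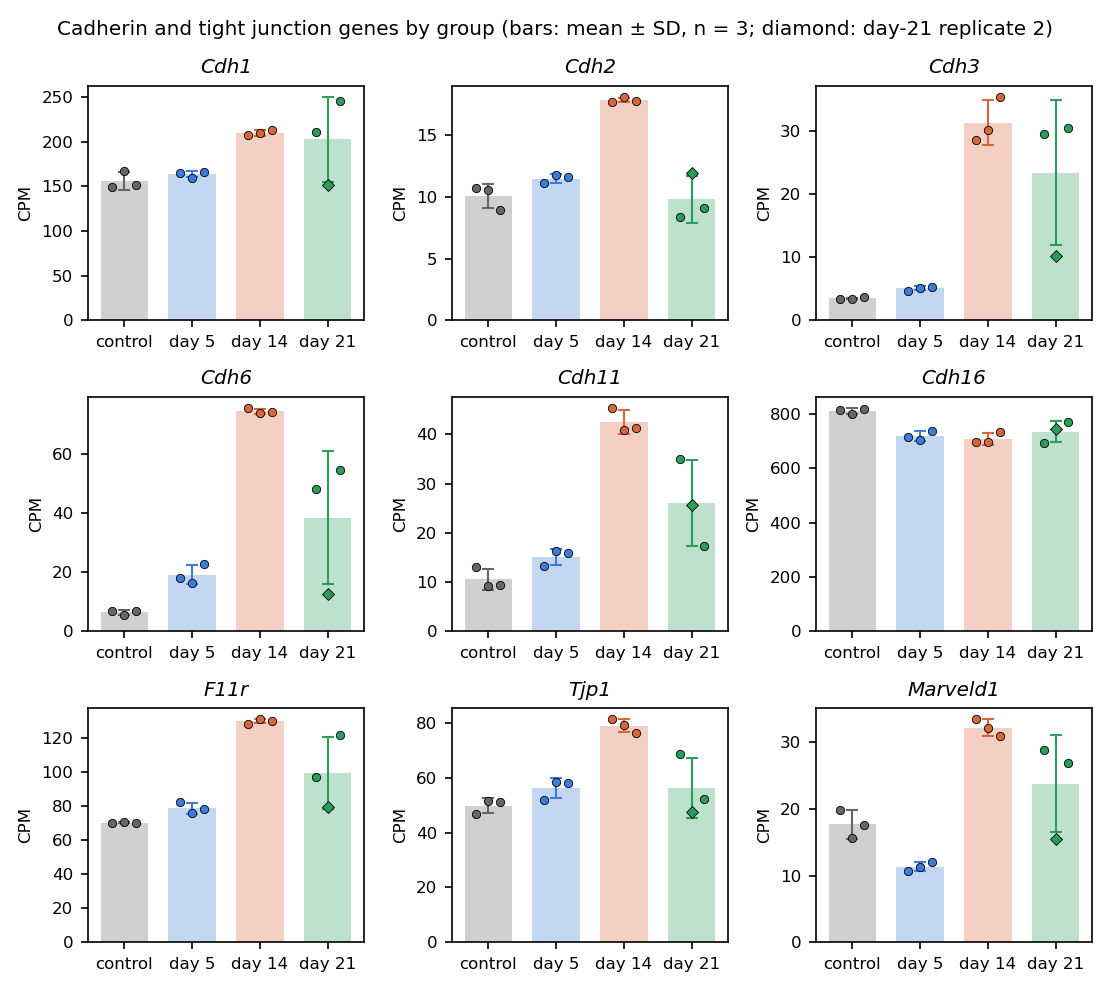
CPM (vertical axes, each from 0) of 6 cadherin genes, F11r, Tjp1 and Marveld1 by group, with bars at the mean of 3 mice, error bars of 1 SD, and a point per mouse, the diamond being day-21 replicate 2. The means of Cdh3, Cdh6, Cdh11, F11r and Tjp1 are highest at day 14, Cdh16 lies between 691 and 817 CPM in every kidney, and Marveld1 is lowest at day 5.

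The adhesion and scaffold genes moved less. F11r had 69.9, 70.3 and 70.2 CPM in control kidneys, 82.1, 75.8 and 78.1 CPM at day 5, 128, 131 and 129.7 CPM at day 14 and 96.9, 79.5 and 122 CPM at day 21. Each kidney given toxin was above each control. It rose by 0.89 ± 0.13 at day 14 (adjusted p = 0.000218) and by 0.50 ± 0.13 at day 21 (adjusted p = 0.0115). The day-21 call was lost in the fit of the 6 libraries compared.

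Tjp1 (ZO-1) had 46.8, 51.5 and 51.2 CPM in control kidneys, 52.0, 58.4 and 58.1 CPM at day 5, 81.2, 79.0 and 76.4 CPM at day 14 and 68.6, 47.6 and 52.3 CPM at day 21. It rose by 0.66 ± 0.12 at day 14 (adjusted p = 0.000866), and its day-21 kidneys overlapped the controls (0.17 ± 0.12, adjusted p = 0.258, and 0.27 ± 0.10 without replicate 2, adjusted p = 0.0353). Tjp3 (ZO-3), found mainly in epithelia, had 13.8, 12.2 and 13.6 CPM in control kidneys, 11.4, 8.61 and 9.22 CPM at day 5, 20.6, 19.9 and 18.4 CPM at day 14 and 19.7, 13.5 and 24.1 CPM at day 21. It rose by 0.57 ± 0.18 at day 14 (adjusted p = 0.0179) and by 0.54 ± 0.18 at day 21 (adjusted p = 0.0349). The day-14 call was lost without control replicate 2 or 3 or day-14 replicate 1, and the day-21 call without any 1 control, day-5 replicate 3, day-14 replicate 2, or day-21 replicate 1 or 3 (adjusted p up to 0.153). The fit of the 6 libraries compared also lost the day-21 call. Tjp3 overlaps Apba3 on the other strand, which held 170.4% of its counts, so its values are uncertain.

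The MARVEL genes differed among themselves. Ocln had 32.5, 27.4 and 32.5 CPM in control kidneys, 34.7, 32.1 and 30.9 CPM at day 5, 36.4, 34.2 and 31.4 CPM at day 14 and 32.8, 29.9 and 32.3 CPM at day 21. Its groups overlapped throughout, and its day-14 log2 fold change was 0.14 ± 0.09 (adjusted p = 0.191, and 0.87 with library totals alone). Marveld2 (tricellulin), which seals the corners where cells meet, lies 43239 bases from Ocln. It had 15.1, 13.3 and 13.4 CPM in control kidneys, 15.8, 15.6 and 16.7 CPM at day 5, 26.8, 26.1 and 23.8 CPM at day 14 and 21.6, 13.3 and 22.6 CPM at day 21. It rose by 0.88 ± 0.16 at day 14 (adjusted p = 0.00105) and by 0.46 ± 0.16 at day 21 (adjusted p = 0.0431). That day-21 call was lost when any 1 library other than day-21 replicate 2 was left out (adjusted p up to 0.171), and was 0.66 ± 0.08 without that replicate (adjusted p = 3.27e-05). Median-of-ratios factors, limma-voom, no filter on low counts and the fit of the 6 libraries compared also lost the call.

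Marveld1, a MARVEL-domain protein, had 19.9, 15.6 and 17.6 CPM in control kidneys, 10.7, 11.3 and 12.0 CPM at day 5, 33.5, 32.2 and 30.9 CPM at day 14 and 28.9, 15.5 and 27.0 CPM at day 21. All day-5 kidneys were below all controls and all day-14 kidneys above them. It fell by 0.64 ± 0.19 at day 5 (adjusted p = 0.0466) and rose by 0.86 ± 0.19 at day 14 (adjusted p = 0.0026). The day-5 call was lost without control replicate 1 or 3, any 1 day-5 kidney or any 1 day-14 kidney (adjusted p up to 0.138), with library totals alone (adjusted p = 0.252) and in limma-voom (adjusted p = 0.0825). At day 21 it was called only without replicate 2 (0.65 ± 0.10, adjusted p = 0.000119, against 0.43 ± 0.19, adjusted p = 0.0874, in all libraries). Marveld3 had a control mean of 13.8 CPM and means of 15.4 CPM at day 5, 14.7 CPM at day 14 and 13.9 CPM at day 21, and was not called on any day (adjusted p = 0.439 at day 5, 0.535 at day 14 and 0.969 at day 21).

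**Figure D5:**
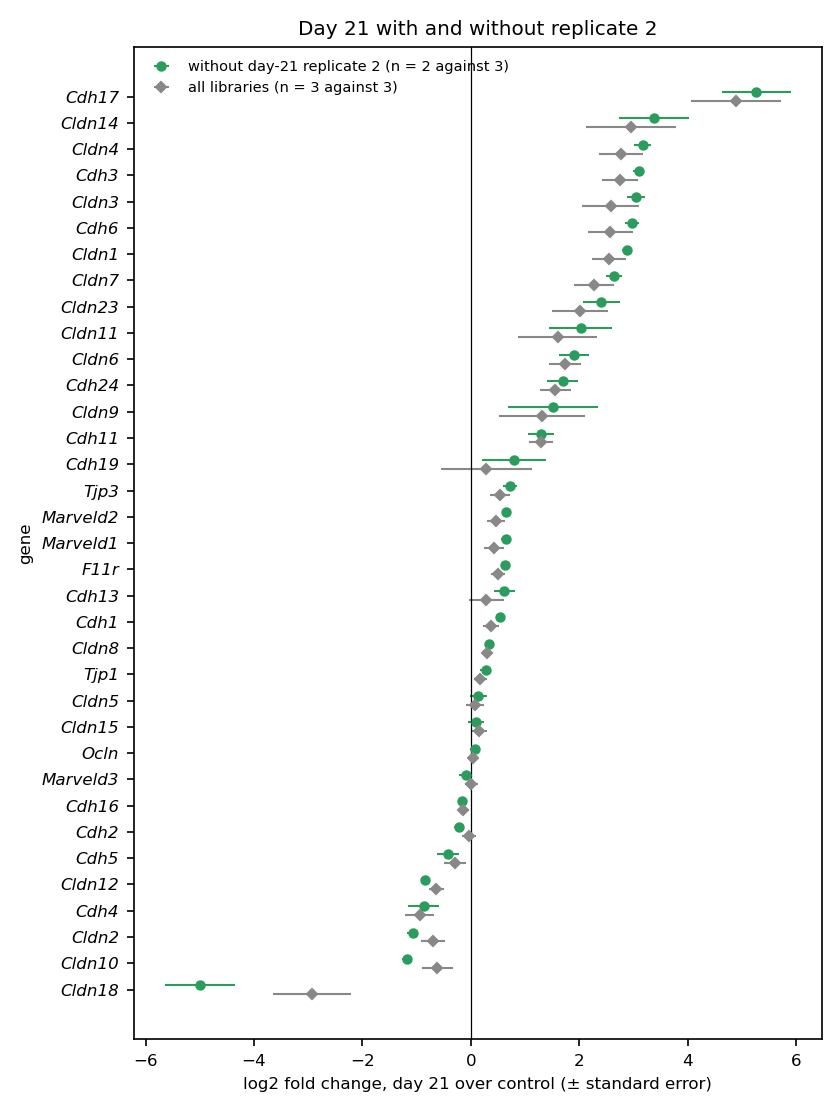
Log2 fold change of day 21 over control with its standard error (horizontal axis) for 35 genes tested in all libraries (rows), without day-21 replicate 2 (circles) and with all libraries (diamonds). For Cldn3 the value was 3.05 without that replicate and 2.58 with it, for Cldn10 -1.18 and -0.62, and for Cldn18 -4.995 and -2.93.

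Between the days, most of the difference lay between day 5 and day 14. Day 14 against day 5 gave 17 rises, where 24.7% of all genes rose, and 6 falls, where 26.1% fell. Without day-21 replicate 2 there were 21 rises against a background of 29.5% and 7 falls against 30.1%, adding Cdh1, Cdh13, Cdh19 and Cldn14 to the rises and Cldn12 to the falls. The largest rises among genes with a mean of at least 1 CPM were Cdh3 (2.63 ± 0.33, adjusted p = 0.000226), Cldn3 (2.48 ± 0.52, adjusted p = 0.00305) and Cldn4 (2.20 ± 0.40, adjusted p = 0.0015). The falls were Cldn2, Cldn8, Cldn10, Cldn15, Cldn18 and Cdh5, among them Cldn10 at -1.44 ± 0.29 (adjusted p = 0.00243) and Cldn15 at -1.04 ± 0.14 (adjusted p = 0.00035). With library totals alone the Cldn8 value of -0.44 turned to 0.15, and those of Cldn2 and Cdh5 came to -0.12 and -0.07 without a call. The calls of Cldn2, Cdh5 and Cldn23 in this comparison were also lost without single day-5 or day-14 kidneys: Cldn2 without day-5 replicate 1 or day-14 replicate 1 or 3, Cdh5 without day-5 replicate 2 or day-14 replicate 2, and Cldn23 without day-5 replicate 1 or 3 or day-14 replicate 1 (adjusted p up to 0.0892).

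Day 21 against day 14 gave 2 rises, where 7.03% of all genes rose, and 3 falls, where 7.57% fell, and without replicate 2 it gave 2 rises against 12.5% and 5 falls against 11.4%. Cldn5 and Cldn8 rose, Cldn8 by 0.52 ± 0.09 (adjusted p = 0.00504). Cldn1 fell by 1.34 ± 0.30 (adjusted p = 0.0165), Cdh2 by 0.87 ± 0.13 (adjusted p = 0.00285) and Tjp1 by 0.49 ± 0.12 (adjusted p = 0.0242). The calls of Cldn1 and Tjp1 were lost without any 1 day-14 kidney (adjusted p up to 0.0836). Without day-21 replicate 2 Cdh6 fell by 0.54 ± 0.12 (adjusted p = 0.0108) and Cldn2 by 0.61 ± 0.10 (adjusted p = 0.00184). Cldn3, Cldn4 and Cldn7 were not called between these days, with log2 differences of -0.18, -0.15 and 0.02, and 0.29, 0.25 and 0.40 without replicate 2.

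The other genes of the junctions moved in both directions at day 14. Of 20 tight junction partners listed 19 were found by symbol, and 6 rose (31.6%) and 5 fell (26.3%), close to the 31.2% and 28.8% of all genes. Without day-21 replicate 2 these were 8 rises and 7 falls. The 3 with the smallest adjusted p all rose: Lsr, the tricellular junction protein angulin-1, by 1.30 ± 0.13 (adjusted p = 2.44e-05), Cxadr, the adhesion receptor for coxsackievirus and adenovirus, by 1.23 ± 0.13 (adjusted p = 4.44e-05), and Cgn, the adaptor cingulin, by 1.35 ± 0.15 (adjusted p = 5.73e-05). Of 12 adherens junction partners 7 rose (58.3%) and 2 fell (16.7%), and 9 rose and 3 fell without that replicate, with Vcl (vinculin) up by 1.63 ± 0.15 (adjusted p = 2.03e-05) and Nectin2 by 1.47 ± 0.21 (adjusted p = 0.00024), while Plekha7, which joins the junction to microtubules, fell by 1.10 ± 0.12 (adjusted p = 5.71e-05). Of 9 desmosome genes 5 rose (55.6%) and 1 fell (11.1%), and 6 rose and 2 fell without it, with Dsg2 at 1.35 ± 0.20 (adjusted p = 0.000264), Ppl (periplakin) at 2.19 ± 0.38 (adjusted p = 0.00064) and Pkp4 at -0.73 ± 0.13 (adjusted p = 0.000673).

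Of 12 transcription factors known to act on junction genes 7 rose (58.3%) and 1 fell (8.33%) at day 14, beside 31.2% and 28.8% of all genes, and 8 rose without day-21 replicate 2. Zeb2, a repressor of E-cadherin, rose by 1.30 ± 0.12 (adjusted p = 1.85e-05), and Elf3, an epithelial activator, by 2.22 ± 0.31 (adjusted p = 0.0002). Ovol1, a zinc-finger factor of epithelia, fell by 2.05 ± 0.19 (adjusted p = 2e-05). Snai1, Snai2, Twist1 and Zeb1, all repressors of junction genes in epithelia, also rose, by 1.75, 1.15, 1.39 and 0.70, as did the epithelial factor Ehf, by 0.83. Grhl1 (0.31), Grhl2 (0.43) and Ovol2 (0.38), all factors of epithelia, were not called, and Grhl2 rose without day-21 replicate 2 (0.42, adjusted p = 0.00377). These are whole-kidney levels, in which the 8 macrophage markers, 8 of 8 of which rose, summed to 787 to 814 CPM at day 14, against 77.4 to 102 CPM in controls. The part of other cell types in these values was not tested.

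Several cell type markers moved at the same time as the claudins. At day 14, 31.2% of all genes rose and 28.8% fell, and without day-21 replicate 2 these shares were 34.7% and 30.9%. The 10 proximal tubule markers summed to 1602 to 1738 CPM at day 14, against 9634 to 10697 CPM in controls, and 10 of 10 fell. The 6 epithelial markers (Epcam, Krt8, Krt18, Krt7, Krt19 and Pax8) summed to 686 to 726 CPM at day 14, against 285 to 305 CPM in controls, and 6 of 6 rose. Of 4 parietal cell markers 3 rose, with a sum of 376 to 385 CPM at day 14, against 145 to 171 CPM in controls. The 11 collecting duct markers summed to 445 to 577 CPM at day 14, against 456 to 580.0 CPM in controls. Of these 1 rose (9.09%) and 4 fell (36.4%), the falls near the share of all genes, and 2 rose without day-21 replicate 2. At day 21 the collecting duct sum was 755, 599 and 1016 CPM. The 6 adipocyte markers summed to 598, 593 and 49.0 CPM at day 14, against 92.1, 231.9 and 54.1 CPM in controls, and none was called. Of 9 loop of Henle and distal tubule markers 7 fell at day 14 and 8 without day-21 replicate 2, of 10 endothelial markers 7 fell and 1 rose, and of 7 urothelial markers 4 rose. The part of the other markers in the junction genes' values was not tested.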

How the data were processed

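Per the labels' protocols, whole-kidney total RNA was treated with DNase and poly(A) selected for the libraries. The authors deposited 1 table of raw counts per gene, with gene symbols and lengths. The submitters' processing notes name fastp 0.20.0, featureCounts and the build GRCm39. The sources used here do not give the aligner, the annotation release or the strand setting. Groups came from the sample titles. All libraries carry 1 batch label, and nothing ties the mice to litters. Within groups, libraries differed by more than sampling noise. The chi-square per degree of freedom was 4.9 to 20.3 within the control, day-5 and day-14 groups. Within day 21 it was 138 between replicates 1 and 3, and 407 and 347 between replicate 2 and these. The day-21 kidneys kept in the fit without replicate 2 thus also differed more than those of other groups.

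The tests used R 4.3.3 with edgeR 4.0.16 and limma 3.58.1. After filterByExpr and TMM scaling, all 12 libraries entered 1 quasi-likelihood model with a term for each group, and p-values were adjusted over all genes tested within each of 5 comparisons. Each standard error is the size of the log2 fold change over the root of its F statistic. The method was run on simulated counts in which all genes shared a dispersion, few genes changed and no library stood apart. In these data many genes changed and day-21 replicate 2 stood apart, so that run does not test the method under these conditions. Levels across genes are CPM divided by the authors' deposited length. Ratios for genes of few counts pool a group's libraries relative to library sizes scaled by TMM factors. Their exact 95% intervals cover counting error only, since reads carry no molecular identifiers. Alternatives were DESeq2 1.42.0, limma-voom, other scalings and filters, a replicate block, separate fits of the 6 libraries in a comparison, and leaving out each library.

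Members, partner lists, marker lists, tests and alternatives were chosen with earlier results of these data known. All members entered the counts and fits, but 1 of them and 1 transcription factor are not reported here by themselves. Values per library were printed for the 6 largest rises and falls per day among called genes whose mean log2 CPM was 0 or more, and for a fixed set of well-known claudins, cadherins and scaffolds. The library values of Cldn6 and Cldn18 were added after they were seen. From each partner list the 3 smallest adjusted p-values of day 14 were named, and the other transcription factors named were added after their values were seen.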

Additional observations from a re-analysis of the deposited data

Results flagged for a closer look

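Cldn8 and Marveld1 were called in opposite directions against control on different days, and the difference between those days was itself called. Cldn8 was higher at day 21 than at day 14 by 0.52 ± 0.09 on the log2 scale (standard error, adjusted p = 0.00504, edgeR), with 91.8, 81.4 and 92.7 CPM at day 21, against 62.6, 62.1 and 60.5 CPM at day 14. Against control it was 0.29 at day 21 and -0.23 at day 14, and those calls were lost in 6 (day 21) and 8 (day 14) of the other settings, while library totals alone turned the day-14 value to 0.50. With library totals alone the difference between day 21 and day 14 was 0.29 without a call, and in the fit of the 6 libraries compared it was 0.54 without a call. Marveld1 was higher at day 14 than at day 5 by 1.51 ± 0.19 (adjusted p = 0.000263, edgeR), with 33.5, 32.2 and 30.9 CPM at day 14, against 10.7, 11.3 and 12.0 CPM at day 5. Against control it was 0.86 at day 14 and -0.64 at day 5, and the day-5 call was lost in 10 of the other settings.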

How the results depend on the processing

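Of 180 member values, each recomputed under up to 20 other settings, 85 were called. Of these, 53 kept direction and call under every setting and 83 kept their sign, and 63 kept the call when any 1 library was left out. The member counts below stand without the share of all genes called under each setting, so they show only how calls moved. Under library totals most calls over all genes at days 14 and 21 were rises, as given above. Scaling by library totals alone gave 2 falls at day 5, 2 falls at day 14, 27 rises and 1 fall at day 21, 28 rises and 3 falls for day 14 against day 5, and 0 rises and 5 falls for day 21 against day 14. With a call in at least 1 scaling, it also turned Cdh16 (0.54), Cdh5 (0.48), Cldn15 (0.44) and Cldn8 (0.50) at day 14, Cdh16 (0.34) and Cdh2 (0.41) at day 21, and Cdh16 (0.56), Cldn12 (0.24), Cldn8 (0.15) and Marveld3 (0.52) for day 14 against day 5. Cldn2 at day 14 came to 0.27, without a call in either. The fit of the 6 libraries compared gave 11 rises at day 5, and 9 rises and 0 falls at day 21. For day 21 against day 14 it gave 0 rises and 0 falls. By edgeR at an unadjusted p under 0.05, these counts of 0 were 4 falls at day 21, and 3 rises and 5 falls for day 21 against day 14, and the 0 rises under library totals were 2. DESeq2 gave 4 rises and 5 falls for day 21 against day 14. For the moved counts the cause was not tested.

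When 1 library was left out, the number of genes that rose and fell ran from 4 to 12 and 1 to 6 at day 5, 18 to 23 and 5 to 8 at day 14, and 13 to 23 and 2 to 5 at day 21. It ran from 16 to 21 and 5 to 7 for day 14 against day 5, and from 1 to 4 and 1 to 7 for day 21 against day 14. Deviations from the group means correlated between same-numbered libraries at -0.14 to 0.171, with 4 of 18 pairs over 0.1. Pairs of unlike number were not set beside them, so these values cannot show whether the numbers pair the mice. With the replicate number as a block, 6 rose and 4 fell at day 5, 20 rose and 5 fell at day 14, where Cldn8 lost its call (adjusted p = 0.0651), and 17 rose and 4 fell at day 21. The block gave 17 rises and 6 falls for day 14 against day 5, and 2 rises and 4 falls for day 21 against day 14. Depth limits the scarce members most, and 8 members had too few counts for a test.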
